A study of Mus musculus with 28 samples.

Results

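The 36 genes described here encode the 19 mouse Wnt ligands, the 10 Frizzled receptors, the 3 receptors of tyrosine kinase type that also bind Wnts (Ror1, Ror2 and Ryk) and the 4 R-spondins. They were taken by name from the 22225 protein-coding genes of GENCODE M1, and all 36 were found. The data are lists of regions called from chromatin immunoprecipitation with sequencing in IDG-SW3, a mouse bone cell line. The line is expanded as osteoblast-like cells at 33 °C with interferon gamma and then matured toward osteocyte-like cells at 37 °C in osteogenic medium without it. In all groups the cells hold a fluorescent reporter gene under the promoter of Dmp1, an osteocyte gene. Histone methylation (H3K4me3, H3K4me2, H3K4me1, H3K9me3, H3K36me3 and H4K20me1) and acetylation (H3K9Ac, H3K27Ac and H4K5Ac) were profiled without hormone at day 35 and at day 3 of maturation, with 1 library per mark and day. The vitamin D receptor (VDR) and the retinoid X receptor (RXR) were profiled at day 35 after 3 h with 100 nM 1,25(OH)2D3, the active vitamin D hormone (1,25D3 below), or with vehicle, in 2 biological replicates per arm.

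Wnt proteins are secreted, lipid-modified signals. In the pathway that runs through beta-catenin, a Wnt joins a Frizzled to a co-receptor of the Lrp family, and beta-catenin then escapes breakdown and acts with Tcf and Lef factors in the nucleus. Ror and Ryk receptors mostly carry Wnt signals that do not use beta-catenin, and R-spondins, through Lgr receptors, keep Frizzleds at the cell surface. In bone, Wnt signals drive osteoblast formation, and osteocytes secrete the Wnt inhibitor sclerostin. H3K4me3 marks the starts of active genes, H3K27Ac, H4K5Ac and H3K9Ac mark active promoters and enhancers, H3K36me3 and H4K20me1 run along transcribed genes, and H3K9me3 is known from silent chromatin.

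Coverage below is the share, in percent, of a window (the gene body widened by 5 kb at both ends) that lay in called regions of a mark. With 1 library per mark and day, no difference between days has a replicate check, and none was tested. The histone lists held between 9360 and 100123 regions. Their covered length differed between days: H3K4me3 took up 12.97 Mb at day 35 against 17.6 Mb at day 3, and H3K9me3 took up 74.8 Mb against 48.0 Mb. The read depth of the libraries is unknown. Of the markers of the labelled cells, Col1a1 and Sp7 were covered by H3K27Ac to 100% at both days, and Dmp1 to 71.8% at day 35 and 58.5% at day 3. Ibsp, a bone matrix gene, was covered to 83.7% at day 35 and 6.00% at day 3. The other osteoblast genes included Col1a2, with 99.3% at day 35 and 97.4% at day 3, and Alpl, with 93.4% and 65.8%. Runx2 had 84.7% and 64.9%. Bglap, the lowest of the osteoblast genes at day 35, had 29.4% at day 35 and 19.1% at day 3. Of the osteocyte genes, Pdpn had 60.9% at day 35 and 33.3% at day 3, Mepe 58.3% and 40.3%, Phex 12.9% and 11.6%, Sost 6.29% and 6.56%, and Fgf23 4.92% and 8.57%. Of 12 markers of muscle, fat, blood, endothelium, nerve and cartilage, Myod1, Cd3e, Cdh5 and Neurod1 were at 0 at both days. The highest at day 35 was Adipoq, with 14.9% at day 35 and 2.33% at day 3. The highest at day 3 were Pecam1, with 10.7% at day 35 and 13.0% at day 3, and Plin1, with 8.38% and 12.6%. The part of other cell types in the results below was not tested.

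Of the 36 genes, 4 were called higher and 3 lower in acetylation at day 35 than at day 3. The rule asked for a difference of over 10 percentage points in H3K27Ac coverage, in the direction also taken by H4K5Ac and H3K9Ac. Higher at day 35 were Wnt5a, Wnt9a, Fzd1 and Fzd5, which is 11.1% of the 36, and the same rule called 11.5% of all protein-coding genes higher. Lower at day 35 were Wnt8a, Rspo2 and Rspo3, which is 8.33% of the 36, against 4.11% of all genes. The median H3K27Ac coverage of the 36 genes was 11.1% at day 35 and 15.6% at day 3, and that of all genes was 11.7% and 11.5%. The median change was 0 points in both sets. By role, the median of the per-gene changes was 0.40 points for the Frizzleds, of which 8 of 10 were called in neither direction. It was -1.37 points for the 19 Wnt ligands, -11.8 points for the 4 R-spondins and 8.43 points for the 3 receptors of tyrosine kinase type. The plot of H3K27Ac by gene shows that the genes spread over most of the scale and that few differed by much between days.

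**Figure D1:**
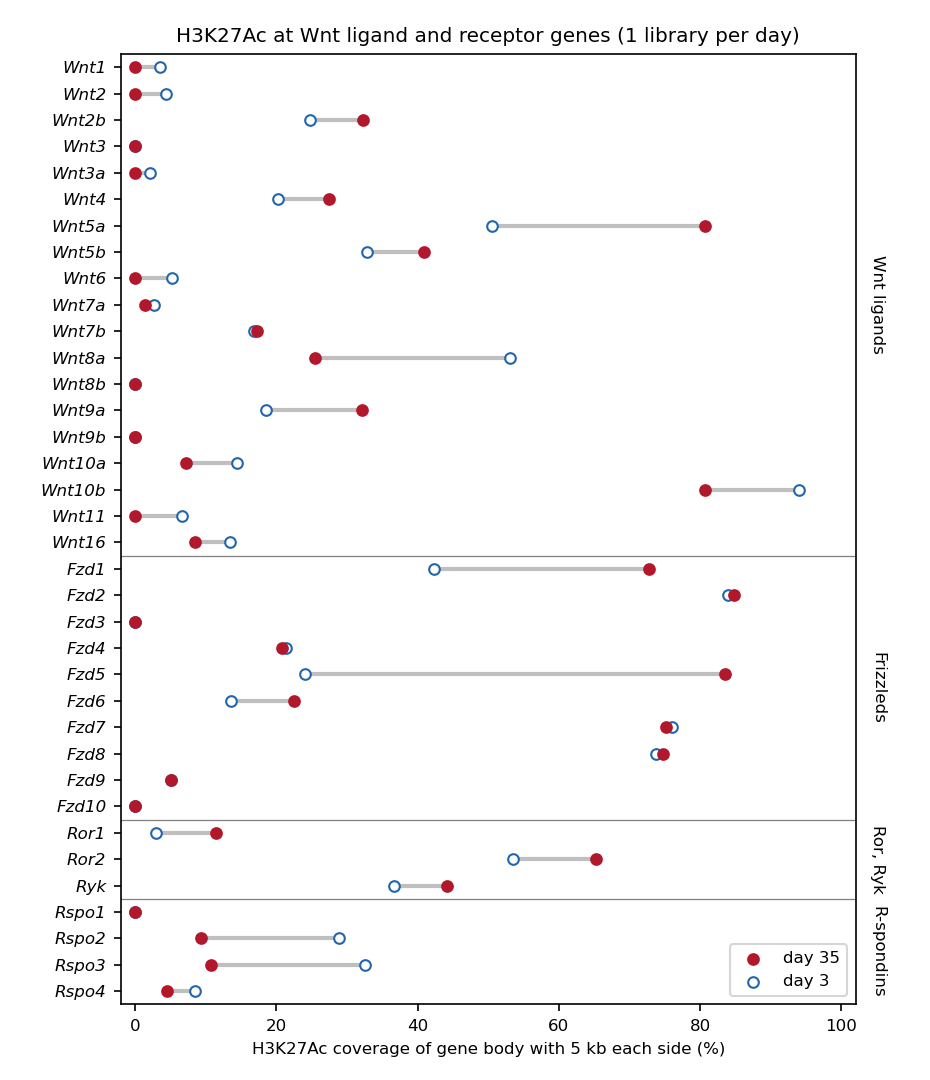
H3K27Ac coverage of the gene body with 5 kb each side, in percent, for each of the 36 genes at day 35 (filled) and day 3 (open), with 1 library per day and a grey line joining the days. Fzd5 has the longest line, 83.6% at day 35 against 24.1% at day 3, and the lines of Wnt8a, Rspo2 and Rspo3 run the other way.

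Among the Wnt ligands, Wnt5a, a ligand of the Ror2 receptor, had the widest acetylation of those called higher. Its H3K27Ac coverage was 80.7% at day 35 and 50.5% at day 3, and its H4K5Ac coverage was 88.2% and 61.6%. H4K20me1 covered 62.3% of Wnt5a at day 35 and 25.0% at day 3, while H3K36me3 covered 47.3% and 57.1%. The H3K4me3 region at its start was 3265 bp wide at day 35 and 7904 bp at day 3. At day 3 the H3K27Ac of Wnt5a lay in separate blocks, and at day 35 a single block ran through the gene, as the map of 3 genes shows. Within 2 kb of its start sites alone, the H3K27Ac change of Wnt5a was -2.10 points, and over the gene body without flanks it was 37.5 points, so the higher coverage lay in the body of the gene.

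Wnt9a, which acts with other Wnts in joint formation in the mouse, was higher at day 35 in more marks. Its H3K27Ac coverage was 32.1% at day 35 and 18.6% at day 3, its H3K9Ac coverage 30.8% and 14.6%, and its H4K5Ac coverage 49.0% and 28.4%. H4K20me1 covered 69.1% of Wnt9a at day 35 and 12.9% at day 3, the largest difference upward in that mark among the 36 genes. H3K36me3 covered 24.7% at day 35 and 1.77% at day 3. An H3K4me3 region of 902 bp was called at its start at day 35 and none at day 3. Wnt9a neighbours Wnt3a on chromosome 11, and Wnt3a, a classic activator of beta-catenin, had no H3K27Ac at day 35 and 2.16% at day 3.

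Wnt10b, which promotes bone formation in mice, was heavily acetylated at both days. Its H3K27Ac coverage was 80.7% at day 35 and 94.0% at day 3, its H4K5Ac coverage 96.1% and 96.5%, and its H3K9Ac coverage 74.5% and 68.3%, so it passed the rule in neither direction. H3K36me3 covered 38.8% of Wnt10b at day 35 and 4.68% at day 3, and an H3K4me3 region of 500 bp, the narrowest width in these lists, was called at day 35 alone. Its neighbour Wnt1, the founding member of the family, had 0% H3K27Ac at day 35 and 3.58% at day 3.

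Wnt8a, an early embryonic ligand, had 25.5% H3K27Ac coverage at day 35 and 53.1% at day 3, 26.9% and 43.0% H3K9Ac coverage, and 71.4% and 75.2% H4K5Ac coverage. It had no H3K4me3, H3K36me3 or H4K20me1 at either day, so its acetylation was not accompanied by marks of a transcribed gene in these lists. Wnt16, which maintains cortical bone in mice, passed no acetyl rule (H3K27Ac 8.52% at day 35 and 13.4% at day 3) but had less coverage of several marks at day 35. H3K4me1 covered 24.6% of Wnt16 at day 35 and 62.2% at day 3, H4K5Ac 22.3% and 54.1%, H4K20me1 6.38% and 28.3%, and H3K36me3 24.6% and 40.1%. Its H3K4me3 region was called at day 3 alone. It was 500 bp wide, ranked 10267 of 11283, and was not called with lists of equal covered length.

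Of the other 14 ligands, Wnt2b, Wnt4 (a kidney and gonad ligand), Wnt5b (the close relative of Wnt5a) and Wnt7b (a lung ligand that also acts in bone formation in mice) were acetylated in part without H3K4me3 within 2 kb of a start site. H3K27Ac covered 40.9% of Wnt5b at day 35 and 32.8% at day 3, 32.2% and 24.8% of Wnt2b, 27.5% and 20.2% of Wnt4, and 17.3% and 16.9% of Wnt7b. Wnt10a, a ligand of teeth and hair, had 7.23% at day 35 and 14.4% at day 3. The other 9 ligands include Wnt3, needed for gastrulation in mice, Wnt7a, which patterns the limb, and Wnt9b and Wnt11, which act in kidney development. These 9 (Wnt1, Wnt2, Wnt3, Wnt3a, Wnt6, Wnt7a, Wnt8b, Wnt9b and Wnt11) had H3K27Ac coverage between 0% and 1.37% at day 35 and between 0% and 6.68% at day 3.

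**Figure D2:**
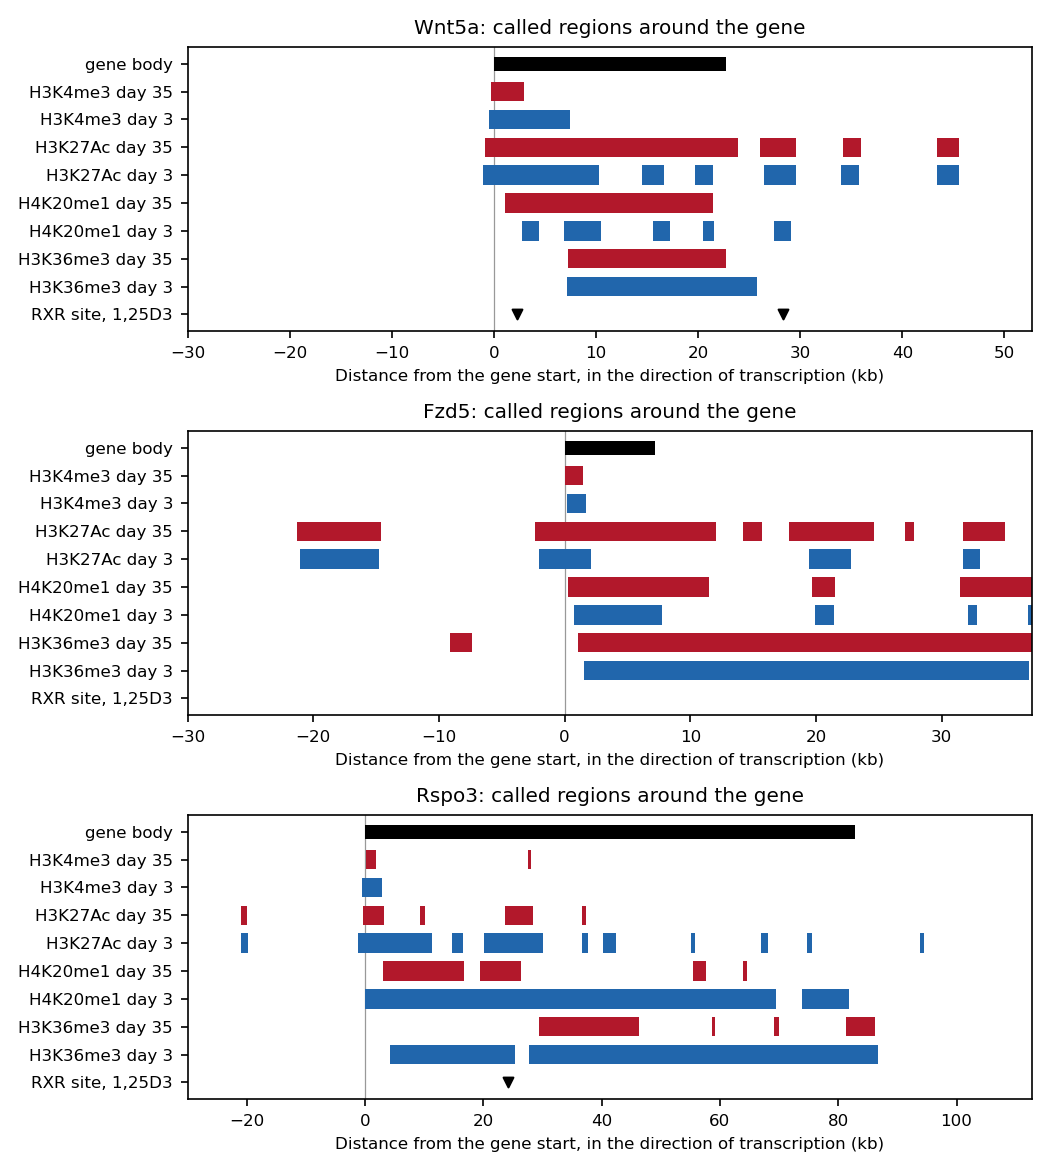
Called regions within 30 kb of Wnt5a, Fzd5 and Rspo3, by distance from the gene start in kb along the direction of transcription, for 4 marks at day 35 (red) and day 3 (blue), with RXR sites found with 1,25D3 at day 35 as triangles. At day 35 single H3K27Ac blocks span Wnt5a and Fzd5, and in Rspo3 the long H4K20me1 and H3K36me3 blocks of day 3 are split into shorter ones at day 35.

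The Frizzled receptors split into 7 genes with H3K4me3 at the start at both days and 3 without it at either. Of the 7, Fzd4 and Fzd6 lacked it at day 3 when the lists were limited to equal covered length. Fzd5, which acts in the developing eye and the gut, had the largest upward H3K27Ac difference of the 36 genes, with 83.6% coverage at day 35 and 24.1% at day 3. Its H4K5Ac coverage was 77.2% at day 35 and 37.9% at day 3, its H3K9Ac coverage 52.0% and 29.1%, and its H3K4me2 coverage 58.3% and 32.1%. The H3K4me3 region of Fzd5 differed little in width, with 1419 bp at day 35 and 1528 bp at day 3. H3K36me3 covered 64.8% and 61.8% of its window and ran on past the end of the gene at both days. Within 2 kb of its start alone, the H3K27Ac change of Fzd5 was 0 points, and over the gene body without flanks it was 71.0 points.

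Fzd1, a receptor for several Wnts, had 72.8% H3K27Ac coverage at day 35 and 42.3% at day 3, with smaller differences in H4K5Ac (83.3% and 75.1%) and H3K9Ac (42.5% and 38.9%). Its H3K27Ac change was 4.39 points over the gene body without flanks and -7.30 points within 2 kb of its start, so the difference lay in the flanks of this short gene. Fzd2, Fzd7 and Fzd8 were widely acetylated at both days. H3K27Ac covered 84.8% of Fzd2 at day 35 and 84.0% at day 3, 75.1% and 76.0% of Fzd7, and 74.7% and 73.7% of Fzd8. At Fzd2 other marks differed between days in both directions. H3K4me3 covered 18.2% at day 35 and 40.2% at day 3, H3K36me3 1.99% and 29.5%, and H3K9Ac 72.7% and 47.7%.

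Fzd6, known for hair and planar polarity patterning in mice, had 55.5% H3K36me3 coverage at day 35 and 6.99% at day 3, the largest upward difference in that mark among the 36 genes. Its H3K27Ac coverage was 22.5% at day 35 and 13.5% at day 3. Fzd4, the receptor for Norrin in retinal vessels, kept its H3K27Ac (20.8% at day 35 and 21.3% at day 3) and had less H3K4me1 at day 35, with 17.6% against 54.9% at day 3. The gene Tmem135 takes up 30.8% of the Fzd4 window, so part of these values may belong to it. Fzd3, an axon guidance receptor, and Fzd9, which promotes bone formation in mice, had no H3K4me3. H3K4me2 covered 26.5% of the Fzd9 window at day 35 and 9.95% at day 3, and the gene Baz1b takes up 17.8% of that window. Fzd10 had no called region of any of the 9 marks at either day.

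Of the receptors of tyrosine kinase type, Ror2, which binds Wnt5a, was acetylated over a long gene. Its H3K27Ac coverage was 65.2% at day 35 and 53.6% at day 3, but H3K9Ac covered 20.6% and 26.9%, so it did not meet the acetyl rule. H4K20me1 covered 85.6% of Ror2 at day 35 and 86.3% at day 3. Ror1, the close relative of Ror2, had no H3K4me3 and had 11.4% H3K27Ac at day 35 against 2.99% at day 3. Ryk, whose kinase domain is inactive, had 44.1% H3K27Ac at day 35 and 36.6% at day 3, and 70.5% and 42.5% H4K20me1.

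Of the 3 genes called lower, 2 were R-spondins. Rspo3, which acts in vessels and in bone, had 10.7% H3K27Ac coverage at day 35 and 32.5% at day 3. H3K36me3 covered 25.1% of Rspo3 at day 35 and 86.4% at day 3, and H4K20me1 25.4% and 83.5%. Its H3K4me3 region was 1611 bp wide at day 35, where it ranked 5522 of 9360 regions by the authors' score, and 3399 bp wide at day 3, where it ranked 259 of 11283. Rspo2, which acts in limb and lung development in mice, had 9.27% H3K27Ac at day 35 and 28.9% at day 3, and 19.3% and 60.5% H4K5Ac. H3K36me3 covered 0.312% of Rspo2 at day 35 and 68.2% at day 3, the largest downward difference in that mark among the 36 genes. The lower H3K27Ac of Rspo2 and Rspo3 had the same sign in every window and list setting tried. Rspo1, known for its part in ovary formation, and Rspo4, known for nail formation in humans, had no H3K4me3 or H3K36me3 at either day, and their H3K27Ac was 0% and 4.58% at day 35, against 0% and 8.49% at day 3.

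**Figure D3:**
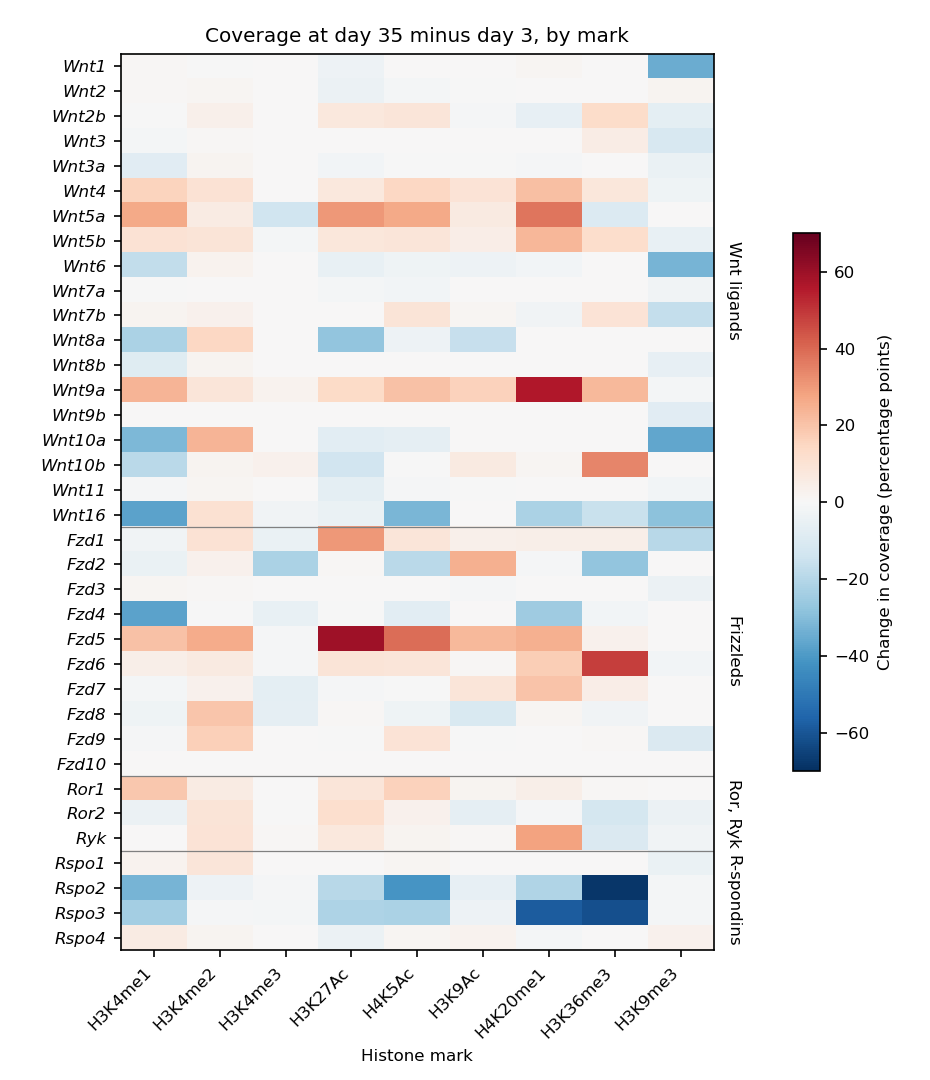
Change in coverage, in percentage points at day 35 minus day 3, for each of the 36 genes and 9 marks, with 1 library per mark and day. Red is higher at day 35 and blue lower, the H3K9me3 column holds no change above 2.96 points, and Rspo2 and Rspo3 are lower in H3K36me3 by more than any other gene.

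Counted by mark over all 36 genes, most shares lay near those of all genes, and H3K9me3, H3K4me1 and H3K4me2 lay farthest from them. H3K9me3 coverage was over 10 points lower at day 35 in 8 genes (22.2%, against 4.17% of all genes) and over 10 points higher in 0 (against 4.2%). The 8 were Wnt1, Wnt3, Wnt6, Wnt7b, Wnt10a, Wnt16, Fzd1 and Fzd9. H3K4me1 was lower in 8 (22.2%, against 9.94%) and higher in 5 (13.9%, against 8.05%). H3K4me2 was higher in 7 (19.4%, against 9.17%) and lower in 0 (against 0.558%). The H3K4me2 list itself was longer at day 35, with 130.2 Mb, than at day 3, with 87.6 Mb, and the part of that difference was not tested.

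The acetyl marks were nearer to all genes. H3K27Ac was higher in 5 genes (13.9%, against 17.8% of all genes) and lower in 4 (11.1%, against 5.82%). H4K5Ac was higher in 5 (against 13.4%) and lower in 4 (against 6.66%), and H3K9Ac was higher in 3 (8.33%, against 7.1%) and lower in 2 (5.56%, against 3.65%). Among the marks of transcribed genes, H4K20me1 was higher in 8 (22.2%, against 17.9%) and lower in 4 (against 6.15%), and H3K36me3 was higher in 5 (against 10.7%) and lower in 5 (against 9.87%). H3K4me3 was lower in 2, Wnt5a and Fzd2 (against 2.15%), and higher in 0 (against 0.157%).

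At the start sites, H3K4me3 was called at most Frizzleds and few Wnt ligands. A region lay within 2 kb of a start site in 14 of the 36 genes at day 35 (38.9%, against 42.4% of all genes) and in 13 at day 3 (36.1%, against 47.8%). By role, it was called at 7 of 10 Frizzleds at each day, at 3 of 19 Wnt ligands at day 35 (Wnt5a, Wnt9a and Wnt10b) and at 2 at day 3 (Wnt5a and Wnt16). It was called at Ror2, Ryk, Rspo2 and Rspo3 at both days. The day 3 region of Fzd6 and the day 35 region of Rspo2 were 500 bp wide. With lists of equal covered length, day 3 gave 10 genes, without Wnt16, Fzd4 and Fzd6. That setting cuts only the longer day 3 list, and its share over all genes is not given here. The 15 genes with H3K4me3 at either day had a median H3K27Ac coverage of 65.2% at day 35 and 36.6% at day 3, against 30.3% and 26.2% over all genes of that class, but the median of their per-gene changes was 1.03 points, against 2.03 points over all such genes. The other 21 genes had no H3K4me3 at either day, and their median H3K27Ac coverage was 0% at day 35 and 4.35% at day 3, against 0% at both days over all genes of that class.

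H3K9me3 was called within 2 kb of a start site in 5 of the 36 genes at day 35 (13.9%, against 9.63% of all genes) and in 19 at day 3 (52.8%, against 13.3%). It was called at both days at Wnt1, Wnt16, Rspo2 and Rspo4, at day 35 alone at Wnt8b, and at day 3 alone at 15 genes. Those 15 were Wnt2, Wnt2b, Wnt3, Wnt3a, Wnt4, Wnt6, Wnt7a, Wnt7b, Wnt9b, Wnt10a, Wnt11, Fzd3, Fzd9, Ror2 and Rspo1. Ligands made up 13 of the 19 genes at day 3, and Frizzleds 2. The day 3 regions at these starts were between 500 and 11941 bp wide, with a median of 2383 bp, against 1839 bp over all 2958 genes with H3K9me3 at a start at day 3. In 12 of the 19 genes (63.2%) the region was in the upper 50% of the list by score, which is near the 68.9% of those 2958 genes. At Wnt16 the region ranked 38 of 33157 at day 3, and at Wnt7b it ranked 444. The lower number at day 35 stands against a longer list, since H3K9me3 covered 1.56 times as much of the genome at day 35 as at day 3. With both lists limited to the same covered length, 2 genes had it at day 35 (5.56%, Wnt8b and Wnt16, against 4.9% of all genes) and 19 at day 3 (52.8%, against 13.3%).

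**Figure D4:**
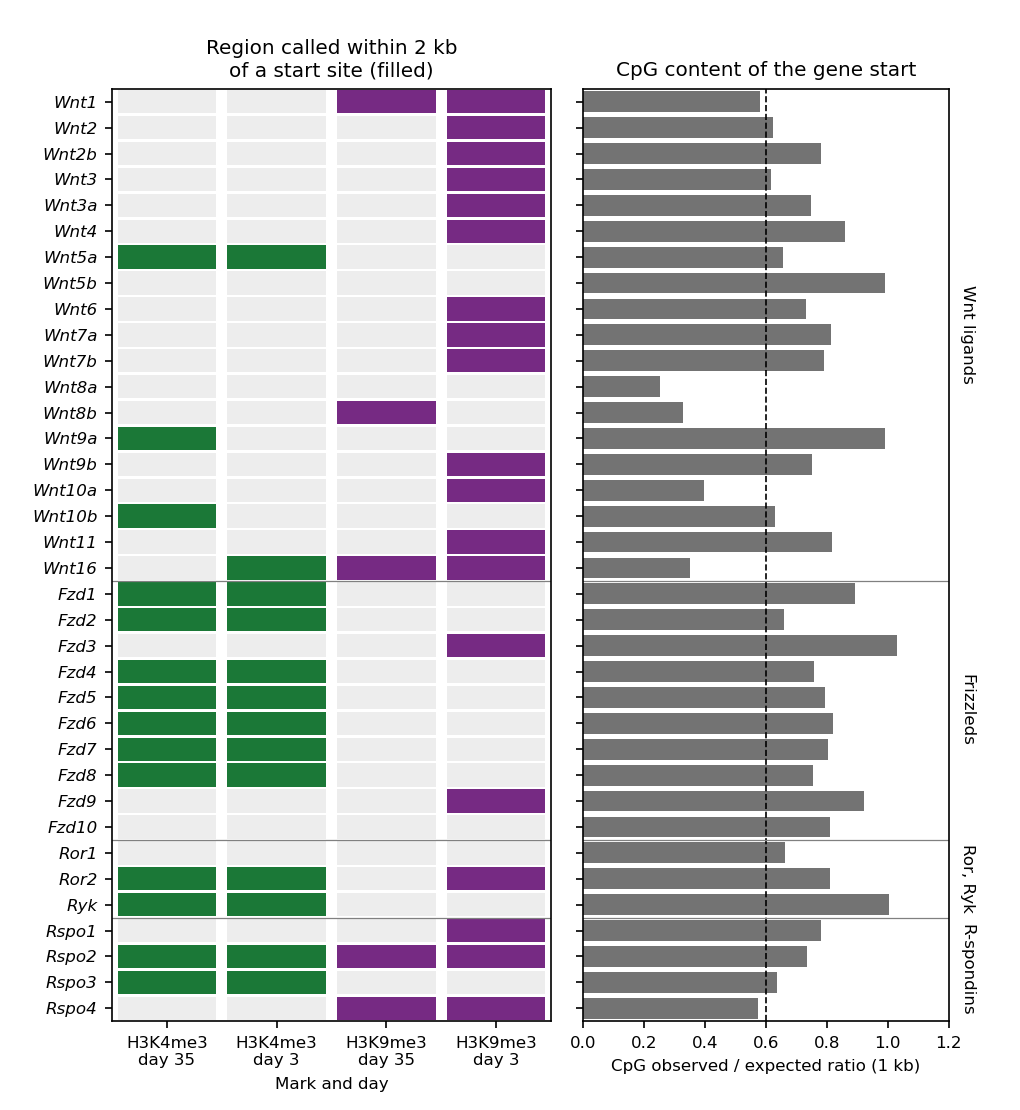
Left, genes with a called H3K4me3 (green) or H3K9me3 (purple) region within 2 kb of a start site at day 35 and day 3; right, the CpG observed to expected ratio of the 1 kb around the gene start, with a dashed line at 0.6. The Frizzled rows are mostly green and the Wnt rows mostly purple at day 3, and few rows are purple at day 35.

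Most of the 36 genes start in CpG-rich sequence. The CpG observed to expected ratio in the 1 kb around the gene start had a median of 0.757, against 0.55 over all genes, and 30 of the 36 genes (83.3%) were above 0.6, against 45.7% of all genes. Among these 30, H3K9me3 at day 3 was called mostly at starts without H3K4me3. Of the 16 CpG-rich genes without H3K4me3 at either day, 0 had H3K9me3 at the start at day 35 and 13 (81.2%) had it at day 3. Over all 1822 genes of that class, the shares were 30.8% at day 35 and 54.3% at day 3. Of the 14 CpG-rich genes with H3K4me3, 1 had H3K9me3 at day 35 (Rspo2) and 2 at day 3 (Ror2 and Rspo2), and over all 8337 genes of that class the shares were 3.3% and 8.68%. Of the 6 CpG-poor genes, 4 had H3K9me3 at day 35 (Wnt1, Wnt8b, Wnt16 and Rspo4) and 4 at day 3 (Wnt1, Wnt10a, Wnt16 and Rspo4), which is 66.7% at each day, against 10.8% at day 35 and 10.3% at day 3 over all CpG-poor genes. The CpG-poor starts thus held 4 of the 5 genes marked at day 35. Of these 4, Wnt1 (ratio 0.582) and Rspo4 (0.576) lay just under the cut of 0.6. Their day 35 H3K9me3 regions were 500 bp wide and ranked 30876 and 36740 of 45063 by score. Of the 19 genes with H3K9me3 at day 3, 18 also had H3K4me1 within 2 kb at day 3 (94.7%, against 77.4% of the 2958 genes), 10 had H3K27Ac (52.6%, against 51.9%) and 3 had H3K4me3 (15.8%, against 29.9%).

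VDR sites near these genes were few, at a share near that of all genes. A site, meaning peaks of both replicates that overlapped, lay within 50 kb of 3 of the 36 gene bodies with 1,25D3 (8.33%, against 11.7% of all genes) and of 1 with vehicle (2.78%, against 5.05%). The vehicle site was near Wnt8b and lay 0.084 kb from the start of another gene, Hif1an, an oxygen-sensing hydroxylase. It was called in all 4 VDR libraries, with scores of 23.3 and 26.4 with 1,25D3 and 15.2 and 32.3 with vehicle, and had no RXR site. The other 2 sites, at Ror2 and Rspo1, were called with 1,25D3 alone and coincided with RXR sites. The VDR lists held 1618 and 1333 peaks with 1,25D3, against 291 and 342 with vehicle. Limited to the length of the shortest, they gave a site with 1,25D3 near 2 genes, Wnt8b and Rspo1 (all genes 3.81%). The Ror2 site was not among them. With vehicle they gave 1, Wnt8b (all genes 4.82%). The Ror2 site lay in an intron of Ror2, 28.1 kb from a start site, with VDR scores of 16.9 and 15.7 and no vehicle peak. The RXR peak there scored 19.6 and 19.7 with 1,25D3, and 6.8 with vehicle in replicate 1 with no peak in replicate 2. The Rspo1 site lay within the gene Gnl2, 55.1 kb past the Rspo1 start, with VDR scores of 27.2 and 35.0 and RXR scores of 11.8 and 17.8 with 1,25D3, and no peak of either factor with vehicle. Scores are the authors' own and have no stated scale.

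VDR peaks of replicate 1 alone, all with 1,25D3, lay near 4 further genes. Wnt6 and Wnt10a shared a peak with a score of 9.1 that overlapped an RXR site, Rspo2 had one 8.98 kb upstream of its start with a score of 8.7, and Rspo4 had one within Angpt4 with a score of 8.9. None of these was called in replicate 2, and none was called with vehicle. Replicate 1 with 1,25D3 thus had a VDR peak near 7 of the 36 genes, against 14.1% of all genes, and replicate 2 near 3, against 12.3%.

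The sequences of the 2 VDR sites called with 1,25D3 alone are shown because both lie where RXR was called as well. Each is the 200 bases around the centre of the site on the plus strand of mm9, read from the NCBIM37 assembly. Capitals mark a direct repeat, meaning a pair of hexamers of the nuclear receptor class spaced by 1 to 5 bases, on either strand, with at most 1 mismatch. The hexamers were AGGTCA and AGGTGA, the like pair AGTTCA and AGTTGA, and the same 4 with G as the opening letter, namely GGGTCA and GGGTGA, and likewise GGTTCA and GGTTGA. Matches with different spacers may overlap.
Ror2 intron, chr13:53352693-53352892: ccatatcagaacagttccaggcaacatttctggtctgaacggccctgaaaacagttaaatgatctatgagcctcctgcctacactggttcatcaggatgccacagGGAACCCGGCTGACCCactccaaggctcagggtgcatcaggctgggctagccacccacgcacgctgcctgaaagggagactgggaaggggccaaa
Rspo1, within Gnl2, chr4:124718632-124718831: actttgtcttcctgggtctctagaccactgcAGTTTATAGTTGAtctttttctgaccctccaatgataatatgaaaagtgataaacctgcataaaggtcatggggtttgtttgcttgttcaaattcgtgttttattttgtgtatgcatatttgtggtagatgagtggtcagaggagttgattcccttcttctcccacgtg
The repeat in the Ror2 site has a spacer of 4 and reads on the minus strand, and the one in the Rspo1 site has a spacer of 1 and reads on the plus strand. The Rspo1 site also held matches with spacers of 4 and 5. Neither window held a repeat with the spacer of 3 that VDR and RXR are known to bind, which says only that these letters are not in these windows. Over all 1218 VDR sites with 1,25D3, a repeat with a spacer of 3 was found in 40.1%, with a spacer of 4 in 13.6%, and with a spacer of 1 in 8.37%.

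RXR sites lay near more of the genes, and their number differed by role. With 1,25D3, 15 of the 36 genes had a site within 50 kb (41.7%, against 31.9% of all genes), and with vehicle 10 (27.8%, against 19.8%). The 36 genes have a median length of 22.3 kb against 15.5 kb over all genes, and longer genes have wider windows. The part of length in these shares was not tested. The 15 were 10 of 19 Wnt ligands (Wnt1, Wnt2b, Wnt5a, Wnt5b, Wnt6, Wnt7b, Wnt8a, Wnt10a, Wnt10b and Wnt16), Ror2 and Ryk, and the R-spondins Rspo1, Rspo3 and Rspo4. Of the 10 Frizzleds, 0 had a site in either arm. Frizzleds have a median length of 4.59 kb and Wnt ligands of 22.2 kb, and the part of length in the counts by role was not tested either. At 100 kb Fzd5, Fzd6, Fzd7 and Fzd9 had an RXR site with 1,25D3. Single-replicate RXR peaks with 1,25D3 lay within 50 kb of Fzd1, Fzd2 and Fzd7.

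By library, RXR peaks lay near 19 and 16 of the genes with 1,25D3 in replicates 1 and 2, and near 17 and 11 with vehicle. The lists themselves held 10333 and 7635 peaks with 1,25D3 and 6875 and 4093 with vehicle, and over all genes the shares with a peak were 42.1% and 35.0% with 1,25D3 and 31.9% and 22.2% with vehicle. More genes thus had a peak with 1,25D3 in each replicate, in this set as over all genes. With the RXR lists limited to the length of the shortest, 11 genes had a site with 1,25D3 (all genes 17.4%). With vehicle 8 had one (all genes 16.4%). In that recount Wnt5a, Wnt8a, Wnt16 and Rspo3 had no site with 1,25D3, while Wnt5a and Wnt8a kept one with vehicle. The part of list length in the difference between arms was not tested. The deposited lists of replicate 2 carry a tag of the barcode maker in their names that those of replicate 1 lack, in both arms alike, and the labels do not say whether the replicates differ in batch. With 2 libraries against 2, an exact two-sided permutation test cannot give p under 0.333, so no test was made.

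**Figure D5:**
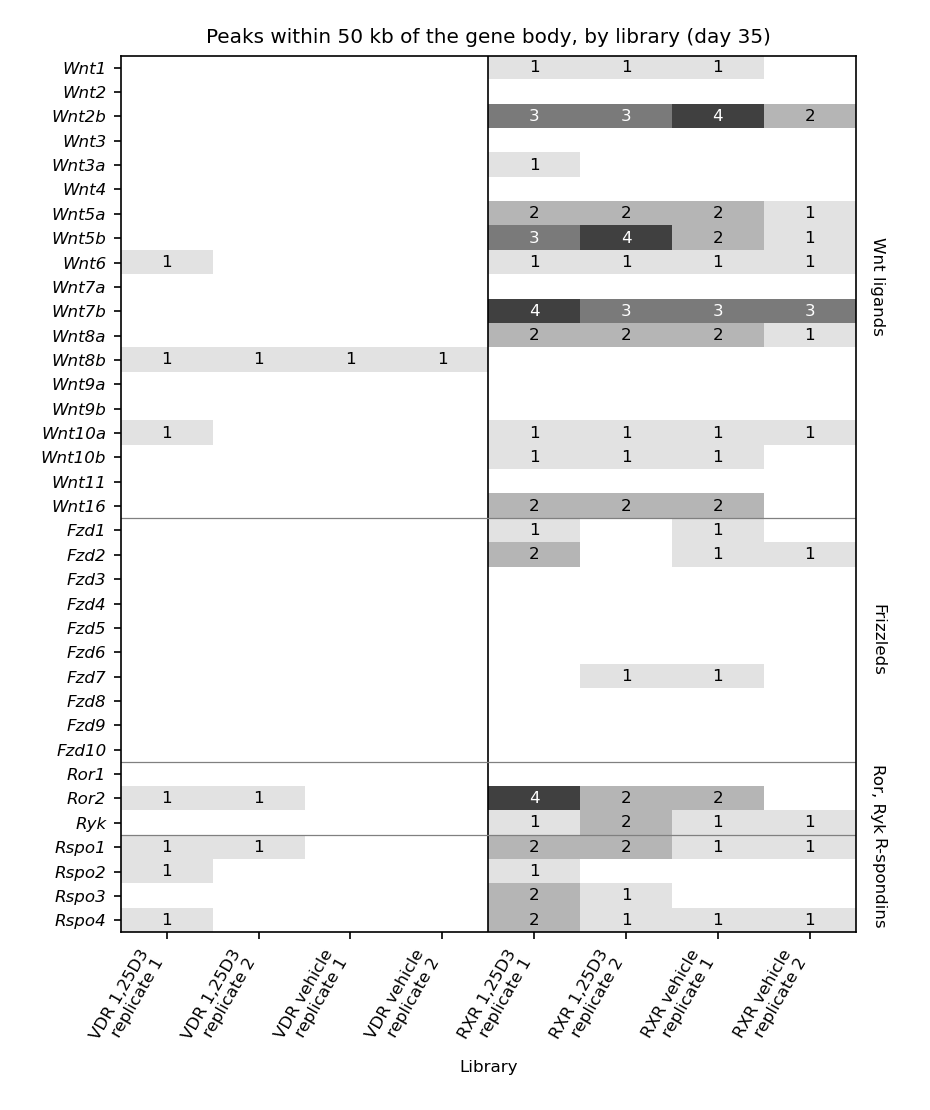
Number of VDR and RXR peaks within 50 kb of each gene body at day 35, by library, with 1,25D3 left of vehicle for each factor. RXR counts reach 4 at Wnt2b, Wnt5b, Wnt7b and Ror2, and most Frizzled rows are empty.

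With 1,25D3 these genes had 24 distinct RXR sites, and 12 with vehicle. Of the 24, 4 had no peak in either vehicle library (16.7%, against 19.2% of all 6783 RXR sites), and they lay at Wnt2b, Wnt5b, Rspo1 and Rspo3. A VDR site overlapped 2 of the 24 (8.33%, against 10.4%). None of the 24 lay within 1 kb of a start site of a protein-coding gene (against 10.6%), and their distances to the nearest one ran between 1.41 and 29.0 kb. H3K27Ac covered 23 of the 24 at day 35 and 23 at day 3 (95.8% each), and over all RXR sites the shares were 95.0% and 90.3%. H4K20me1 covered 11 of the 24 at day 35 (45.8%) and 19 at day 3 (79.2%), and over all RXR sites 27.6% and 50.4%.

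The 2 RXR sites with the best ranks lay between protein-coding genes, and other gene types were not looked at. The first, shared by Wnt6 and Wnt10a, lay 25.4 kb past the start of Wnt10a and scored 36 and 37.6 with 1,25D3 and 38.2 and 26.7 with vehicle. It ranked 60 of 10333 and 53 of 7635 with 1,25D3. H3K4me3 covered this site at both days, which held for few of the 24 sites (2 at day 35 and 3 at day 3). Wnt7b had the next, 29.0 kb upstream of its start, with 27.3 and 28.9 with 1,25D3 and 24.2 and 24.2 with vehicle. Both were thus called in all 4 libraries. A second site of Wnt7b, 18.6 kb upstream, scored 15.7 and 19.7 with 1,25D3 and 13.8 and 13.5 with vehicle, and a further one, 54.3 kb past its start, scored 6.6 and 8.9 with 1,25D3 and 6.6 and 6.0 with vehicle. Wnt2b, Wnt5b and Wnt7b had 3 sites each, the most of the 36 genes, and the best-ranked one of Wnt2b overlapped a UTR of Wnt2b and scored 12.1 and 11.7 with 1,25D3 and 9.9 and 11.0 with vehicle. The best-ranked site of Wnt5b lay within the neighbouring gene Adipor2, an adiponectin receptor, and scored 12.3 and 14.6 with 1,25D3 and 9.5 and 11.3 with vehicle.

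Wnt5a had an RXR site in an intron, 2.22 kb from a start site, that scored 8.0 and 8.7 with 1,25D3 and 6.6 with vehicle in replicate 1 alone. A further site lay 21.7 kb from a start site, beyond the gene end, and scored 7.5 and 7.8 with 1,25D3 and 8.0 and 8.2 with vehicle. Wnt1 and Wnt10b shared a site 2.14 kb upstream of Wnt10b, which scored 10.2 and 9.1 with 1,25D3 and 11.1 with vehicle in replicate 1 alone. Each of these 3 sites was thus called in at least 1 vehicle library. The 2 sites of Wnt16 were each called in both 1,25D3 libraries and in vehicle replicate 1. Wnt8a had 2 sites, of which that nearest to it, 34.1 kb upstream, was called in all 4 libraries. The 2 sites of Wnt2b and Wnt5b that lacked a vehicle peak had low scores: the one 6.37 kb upstream of Wnt2b scored 8.0 and 5.7 with 1,25D3, and the one in an intron of Wnt5b, 6.86 kb from its start, scored 6.1 and 6.6. Among the receptors, Ror2 had a second intronic site 26.4 kb from a start site, which scored 8.0 and 10.0 with 1,25D3 and 6.2 with vehicle in replicate 1 alone. Ryk had a site in an intron, 7.74 kb from its start, that scored 13.0 and 10.2 with 1,25D3 and 7.6 and 6.0 with vehicle. Rspo3 had an intronic site 24.1 kb from its start that scored 6.1 and 7.2 with 1,25D3 and was not called with vehicle. Rspo1 had a second site in Gnl2, 61.6 kb past its start, called in all 4 libraries with 8.0 and 10.6 with 1,25D3 and 7.0 and 9.3 with vehicle. Rspo4 had 1 site, within Angpt4, which scored 13.2 and 17.2 with 1,25D3 and 12.7 and 12.6 with vehicle.

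The windows of 5 RXR sites are shown in the same form. The sites of Wnt7b and Wnt5b are the best-ranked ones of genes with the most sites. That of Wnt10a has the highest rank near any of the 36 genes, and those of Rspo3 and Wnt2b hold a repeat with a spacer of 3. These last 3 were picked after their values were seen. The Rspo3 and Wnt2b sites were also called with 1,25D3 alone, which was not a ground for the choice. The other sites without a vehicle peak, at Wnt5b and Rspo1, held no repeat with a spacer of 3. The Wnt7b site, which holds one, was called in all 4 libraries.
Wnt7b upstream, chr15:85441171-85441370: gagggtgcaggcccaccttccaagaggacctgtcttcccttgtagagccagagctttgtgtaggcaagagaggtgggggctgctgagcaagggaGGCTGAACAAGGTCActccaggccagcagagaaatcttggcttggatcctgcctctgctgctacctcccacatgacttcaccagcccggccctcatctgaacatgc
Wnt5b, within Adipor2, chr6:119342968-119343167: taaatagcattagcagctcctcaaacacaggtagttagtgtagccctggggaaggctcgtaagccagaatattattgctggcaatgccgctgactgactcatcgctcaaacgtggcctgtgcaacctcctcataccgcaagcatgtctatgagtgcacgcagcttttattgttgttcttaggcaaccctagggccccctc
Wnt10a downstream, chr1:74863419-74863618: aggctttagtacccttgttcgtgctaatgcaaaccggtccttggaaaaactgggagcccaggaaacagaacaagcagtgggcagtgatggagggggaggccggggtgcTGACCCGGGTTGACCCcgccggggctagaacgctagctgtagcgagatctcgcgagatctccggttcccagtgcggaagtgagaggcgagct
Rspo3 intron, chr10:29231438-29231637: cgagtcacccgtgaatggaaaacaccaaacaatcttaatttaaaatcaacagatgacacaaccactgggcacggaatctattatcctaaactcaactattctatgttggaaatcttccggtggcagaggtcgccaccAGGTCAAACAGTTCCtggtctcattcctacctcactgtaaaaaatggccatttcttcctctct
Wnt2b upstream, chr3:104770896-104771095: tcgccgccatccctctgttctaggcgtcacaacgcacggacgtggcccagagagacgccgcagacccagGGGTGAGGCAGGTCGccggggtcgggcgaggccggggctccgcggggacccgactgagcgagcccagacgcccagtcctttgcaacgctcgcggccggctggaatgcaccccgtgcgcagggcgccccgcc
Capitals mark repeats with a spacer of 3 on the plus strand in the Wnt7b, Rspo3 and Wnt2b windows, each with 1 mismatch, and a repeat with a spacer of 4 on the minus strand and 0 mismatches in the Wnt10a window. The Wnt5b window held no match. Of the 24 RXR sites, 3 held a repeat with a spacer of 3 (12.5%, against 11.0% of all RXR sites) and 4 one with a spacer of 4 (16.7%, against 11.4%). A repeat with a spacer of 4 and 0 mismatches was in 1.77% of all RXR sites. A match describes letters and does not show binding to them.

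Of 49 other Wnt pathway genes, 17 were called higher at day 35 by the acetyl rule (34.7%, against 11.5% of all genes) and 0 lower (against 4.11%). They were 2 of 6 co-receptors, 3 of 13 secreted inhibitors, 1 of 2 ligand-processing genes, 6 of 12 genes of the cytoplasmic relay, 5 of 12 nuclear factors and 0 of 4 genes of receptor turnover. Lrp4, a co-receptor that anchors sclerostin, had 94.8% H3K27Ac coverage at day 35 and 25.1% at day 3. Nkd2, which restrains Dishevelled, had 78.9% and 7.32%, and Tcf7, a nuclear partner of beta-catenin, had 78.4% and 28.7%. Sfrp4, a secreted inhibitor, had 63.2% and 22.4%, and Ctnnb1, which encodes beta-catenin, had 84.3% and 45.8%. Porcn, the enzyme that adds the lipid to Wnts, had 45.9% at day 35 and 18.7% at day 3. The difference in share between these 49 genes and the 36 ligands and receptors was not tested. Over all genes, the rule called higher 2001 of the 10788 with H3K4me3 at a start site at either day. It called higher 555 of the 11437 without. The 49 genes were not split in this way, and the part of that state in their share was not tested.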

How the data were processed

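Chromatin immunoprecipitation with sequencing gave 26 region lists from 28 samples; the 2 inputs had no list used here. The deposited lists hold chromosome, start, end, name, the authors' own score, whose scale is not stated, and strand. Per the submitters' processing notes, Bowtie and HOMER were used with the mm9 build; versions, calling thresholds and read depths are not stated there. Each library was called on its own. The sample titles say H4K5Ac where a protocol says H3K5Ac, and the titles were followed. Groups came from the labels. Nothing was renormalized: coverage of gene bodies with 5 kb each side, regions within 2 kb of protein-coding start sites, and VDR and RXR sites (overlap of at least 1 bp between replicates) within 50 kb were counted with Python 3.11.15 and NumPy 2.4.6 and set beside the same over 22225 protein-coding genes of GENCODE M1 (1 per symbol, mitochondrial genes left out). On NCBIM37 (mm9), 0 called regions ran past the end of their chromosome. Coordinates are 1-based. Sequences were read with pysam 0.24.0. The counting was checked on simulated regions. No test was run, since there is 1 library per mark and day, and since the genes and lists were chosen with earlier results of these data known. Genes were named where they met the acetyl rule, had H3K4me3 at one day alone, a VDR peak or an RXR site; the H3K9me3 starts, the CpG classes and the repeat search were added after the data were seen. Other pathway genes were counted by list, and those with the largest H3K27Ac changes were named.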

Additional observations from a re-analysis of the deposited data

How the results depend on the processing

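No paired test was made, since there were 2 libraries per factor and arm and 1 library per mark and day. Set side by side within replicates 1 and 2, RXR peaks lay near 19 and 16 genes with 1,25D3 and near 17 and 11 with vehicle, and VDR peaks near 7 and 3 with 1,25D3 and near 1 and 1 with vehicle. Of 68 recounts under another setting, 43 stayed within 1.5 times the value in the text or gave the same median, and 25 did not. Some of the 43 could not change. Equal covered length cuts only the longer list, so H3K4me3 at day 35 and H3K9me3 at day 3 repeat their counts. A count within 1.5 times may still lose genes, as H3K4me3 at day 3 did, from 13 to 10 with equal covered length. The number of genes called higher by the acetyl rule was 2 within 2 kb of start sites (Wnt5b and Ror1, so none of the 4 in the text, and 5.36% of all genes), 7 with the higher-scoring 50% of regions (all genes 9.71%), 9 with a threshold of 5 points (15.6%) and 2 with all 3 acetyl marks past 10 points (3.01%). The number called lower was 5 within 2 kb of start sites (all genes 8.66%), 5 with lists of equal covered length (6.86%), 5 with a threshold of 5 points (7.86%) and 0 with all 3 marks past 10 points (0.967%). The median H3K27Ac change was -0.273 points with lists of equal covered length (all genes 0). Of single genes, the H3K27Ac change turned to -2.10 points at Wnt5a and -7.30 points at Fzd1 within 2 kb of start sites. That window takes in only the part of the gene body and flank next to a start site. Genes with H3K4me3 at a start at day 35 numbered 8 with the higher-scoring 50% of regions. That setting leaves fewer regions for any gene, and its share over all genes is not given here, so the 8 has nothing to stand against. For H3K9me3 at a start, with settings chosen after seeing the data, day 35 gave 1 gene within 500 bp (all genes 4.86%), 2 with the higher-scoring 50% (6.55%) and 2 with equal covered length (4.9%), and day 3 gave 12 with the higher-scoring 50% (9.17%). Genes near a VDR site numbered 1 at 10 kb (all genes 5.27%) and 8 at 100 kb (18.1%) with 1,25D3, and 0 at 10 kb (2.18%), 2 at 100 kb (7.65%) and 0 with the higher-scoring 50% (2.67%) with vehicle. Genes near an RXR site numbered 9 at 10 kb (all genes 16%) and 23 at 100 kb (45%) with 1,25D3, and 3 at 10 kb (9.17%) and 19 at 100 kb (30.5%) with vehicle. Leaving out 1 replicate gave between 3 and 7 genes for VDR with 1,25D3, between 1 and 1 with vehicle, between 16 and 19 for RXR with 1,25D3 and between 11 and 17 with vehicle. The 7 (all genes 14.1%) and the 17 (31.9%) came without replicate 2. The cause of these differences was not tested. Read depth is unknown, so an uncalled region may be absent or below the threshold of its list.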
